A study of Homo sapiens with 6 samples.

Results

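The genes described here are 29 human genes of cholesterol synthesis and sterol regulation. They were taken by symbol from a list of synthesis enzymes, sterol sensors and genes of sterol transport, with no threshold on a measured value. The genes were, however, chosen with earlier results of these data known. Of the 29 genes, 28 had a probe with a single gene name, and 27 had a probe that was detected in at least 1 line, meaning on both of its arrays. These 27 genes belong to 17225 genes and unnamed probes that could be read in the series. FDFT1, squalene synthase, was not analysed here, because no probe carried its name. STARD4, a cytosolic sterol carrier, was detected on 1 array only, with intensities of 84.6 to 129.6 before normalization, and was left out of every comparison. The remaining genes comprise 7 enzymes of the mevalonate section, 10 enzymes that lead from squalene to cholesterol, GGPS1 of the prenyl side branch, 5 sensors and transcription factors and 4 genes of transport and efflux.

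HEK293t cells, a human embryonic kidney line that carries a viral large T antigen, were made to express shRNAs stably. The 3 lines were shlinc00598#2 and shlinc00598#3, each with an shRNA against the nuclear long noncoding RNA linc00598, and shCTL, with a control shRNA; they are called #2, #3 and shCTL from here on. All lines grew in the same serum-containing medium. Total RNA of each line was read on 2 Illumina HumanHT-12 v4 arrays, named replicate 1 and replicate 2, which gave 6 arrays. The labels do not say whether the replicates came from separate cultures, so p-values measure only the spread between these arrays. Each line is a single stable population, and no probe carried the name of linc00598, so the extent of its knockdown could not be read.

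The 6 arrays had 20864 to 22134 detected probes and median intensities of 105.4 to 126.2. According to the labels all of them lie on 1 chip, with replicate 1 on its first 3 positions and replicate 2 on the last 3, so chip position and replicate cannot be told apart. Values are log2 intensities after quantile normalization of the 6 arrays, and are therefore relative to the other genes of an array. The table of processed values was compared with the table before normalization, read by its sample descriptions. By that reading, 4 of the 6 processed columns held an array other than their own label names (Spearman rho of 1 with that other array and of 0.925 to 0.941 with the array of their own label). The labels do not settle which table names the arrays rightly. The table before normalization was used, and every value by line or replicate depends on this choice. Calls from the processed table are given only as an alternative. Of the kidney and HEK293t markers examined, 5 of the 7 with a probe were detected on all 6 arrays, among them VIM and EYA1, whereas PAX2 and LHX1 were not. No leukocyte or endothelial marker was detected on all 6 arrays, whereas ALB, of 3 hepatocyte markers, and COL1A1 and COL3A1, of 3 fibroblast markers, were.

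Cells make cholesterol from acetyl-CoA through mevalonate, isoprenoid diphosphates and squalene, and the genes of these steps are turned on by the membrane-bound transcription factor SREBP-2 when the membranes of the endoplasmic reticulum hold little cholesterol. SCAP escorts the SREBPs to the Golgi for cleavage, and the INSIG proteins hold SCAP back when sterols are plentiful. Oxysterols made under sterol excess activate the LXR receptors, which raise the cholesterol exporters ABCA1 and ABCG1 and the ubiquitin ligase MYLIP. Synthesis and export are thus known to be regulated in opposite directions by cell sterol.

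Promoter sequences were examined because factors that act with the SREBPs, NF-Y and Sp1, bind short motifs close to the start of sterol genes. RefSeq (GRCh38.p14) held a promoter for 25 of the 29 genes, and the 250 bases before each start were searched on both strands for CCAAT (NF-Y box), GGGCGG (Sp1 box) and TCACNCCAC (sterol regulatory element, in its classical form), whose matches may share end bases. CCAAT occurred in 18 of the 25 genes (72%), against 42.1% of all measured genes with a promoter in the table. GGGCGG occurred in 24 of the 25 (96%), against 74.3% of the measured genes. TCACNCCAC occurred only in SREBF2 (4% of the 25), against 1.21%. Genes can have several annotated starts, and per promoter CCAAT was found in 60.6% of those of the sterol genes and in 33.3% of those of all measured genes.

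Stretches that hold these letters are shown for 5 of the genes that were higher in replicate 2, and for SREBF2, the gene of SREBP-2 itself. Genes that were not called higher held CCAAT as well, among them FDPS, TM7SF2, HSD17B7, SC5D and GGPS1, whose stretches are not shown. Capitals mark CCAAT, which reads ATTGG on the other strand, and in SREBF2 also the sterol regulatory element. All run 5′ to 3′ on the strand of the gene.
HMGCS1, minus strand of chr5:43313496-43313579: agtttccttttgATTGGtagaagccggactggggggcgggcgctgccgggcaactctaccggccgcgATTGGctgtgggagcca
MVD, minus strand of chr16:88663160-88663262: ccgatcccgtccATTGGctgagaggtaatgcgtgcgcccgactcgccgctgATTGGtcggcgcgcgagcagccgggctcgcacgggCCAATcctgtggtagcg
LSS, minus strand of chr21:46228908-46228936: cgcggcgctctgATTGGttgcgtgggcgt
INSIG1, plus strand of chr7:155297696-155297724: cgccggcctcccATTGGttgcggccgcct
MYLIP, plus strand of chr6:16128965-16129034: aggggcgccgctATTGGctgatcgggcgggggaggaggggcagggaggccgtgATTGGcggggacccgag
SREBF2, plus strand of chr22:41832960-41833015: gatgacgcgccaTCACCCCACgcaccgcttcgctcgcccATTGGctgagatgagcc

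In SREBF2 the sterol element began 133 bases before the start and the NF-Y box 106 bases before it. HMGCS1 had boxes at 155 and 100 bases, MVD at 159, 120 and 85, MYLIP at 109 and 68, LSS at 150 and INSIG1 at 170. A match is a description of the letters only, and binding was not measured.

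**Figure D1:**
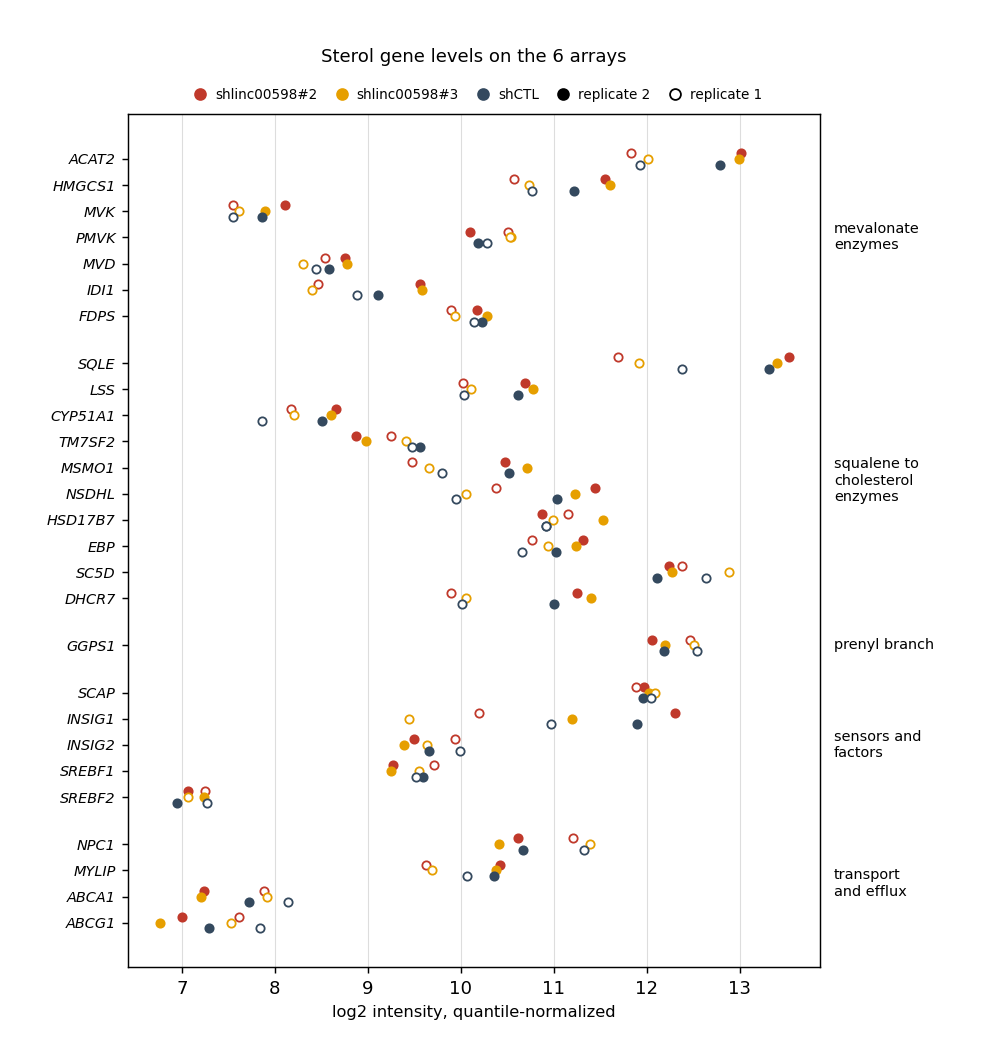
Log2 intensity (quantile-normalized, horizontal axis) of the 27 measured sterol genes on each of the 6 arrays, grouped by role. Colours give the line, filled circles replicate 2 and open circles replicate 1. For most synthesis enzymes the filled circles lie to the right of all open ones, as for SQLE, whose replicate 2 arrays lie at 13.31 to 13.53 and whose replicate 1 arrays reach 12.38 at most.

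The greatest contrast among these genes lay between the replicates and not between the lines. Most synthesis enzymes and INSIG1 were higher in replicate 2 than in replicate 1 in all 3 lines, by up to 3.02-fold, whereas NPC1, ABCA1 and ABCG1 were lower in all 3 lines. In a limma fit of line and replicate (moderated test, two-sided, Benjamini-Hochberg over 17225 genes and unnamed probes, threshold 0.05), 20 of the 27 genes differed. Of these, 14 were higher in replicate 2, against 18.8% of all genes and unnamed probes, and 6 were lower, against 17.8%. Called in either direction were 36.6% of all genes, so differences between the replicates were common. The sterol genes were chosen with earlier results of these data known, so their counts against all genes are a description. A difference of at least 2-fold was rarer, with 5 sterol genes higher (ACAT2, SQLE, NSDHL, DHCR7 and INSIG1) against 0.499% of all genes. All 3 replicate 2 arrays lay above all 3 replicate 1 arrays for 15 genes, against 23.5% of all genes, and below them for 5 genes, against 20.5%. In the processed table read by its labels 0 sterol genes and 0% of all genes were called.

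Among the mevalonate enzymes 5 of 7 were higher in replicate 2, against 18.8% of all genes, and none was lower, against 17.8%. The median difference was 0.38 on the log2 scale, against 0.02 over all genes. ACAT2, the cytosolic thiolase that makes acetoacetyl-CoA, stood at 13.01 in #2, 12.995 in #3 and 12.78 in shCTL in replicate 2, against 11.83 in #2, 12.01 in #3 and 11.93 in shCTL in replicate 1. This is a 2.01-fold difference (log2 1.01 ± 0.09 SE, adjusted p = 0.00011) with a wide gap between the replicates. HMGCS1, the synthase of the next step, read 11.55 in #2, 11.60 in #3 and 11.22 in shCTL in replicate 2, against 10.58 in #2, 10.73 in #3 and 10.77 in shCTL in replicate 1. Its difference was 0.76 ± 0.11 (adjusted p = 0.000862), and all replicate 2 arrays were above all replicate 1 arrays.

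Mevalonate is next phosphorylated by the kinases MVK and PMVK, which behaved unlike each other. MVK read 8.11 in #2, 7.89 in #3 and 7.87 in shCTL in replicate 2, against 7.55 in #2, 7.62 in #3 and 7.55 in shCTL in replicate 1 (0.38 ± 0.09, adjusted p = 0.010). PMVK read 10.10 in #2, 10.54 in #3 and 10.18 in shCTL in replicate 2, against 10.51 in #2, 10.53 in #3 and 10.29 in shCTL in replicate 1 (-0.17 ± 0.10, adjusted p = 0.223). The replicates overlapped for PMVK and not for MVK. Without either array of #2, which then adds nothing to this contrast, the difference of MVK was 0.30 (adjusted p = 0.083), and its call was lost.

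MVD, the decarboxylase that makes isopentenyl diphosphate, read 8.75 in #2, 8.77 in #3 and 8.58 in shCTL in replicate 2, against 8.54 in #2, 8.30 in #3 and 8.44 in shCTL in replicate 1 (0.28 ± 0.09, adjusted p = 0.0466). The gap between the replicates was narrow, and the call was lost without #3 (0.18, adjusted p = 0.314) and without #2 (0.31, adjusted p = 0.0937). It was also lost with neqc (adjusted p = 0.0803), median scaling (adjusted p = 0.095), no filter on detection (adjusted p = 0.0644) and without the line term (adjusted p = 0.0615). IDI1, the isomerase that balances both isoprenoid units, read 9.56 in #2, 9.59 in #3 and 9.11 in shCTL in replicate 2, against 8.46 in #2, 8.40 in #3 and 8.88 in shCTL in replicate 1 (0.84 ± 0.16, adjusted p = 0.00381). Most of this difference came from the knockdown lines, with 1.10 in #2 and 1.18 in #3 against 0.22 in shCTL. FDPS, farnesyl diphosphate synthase, read 10.18 in #2, 10.28 in #3 and 10.23 in shCTL in replicate 2, against 9.89 in #2, 9.94 in #3 and 10.14 in shCTL in replicate 1 (0.24 ± 0.09, adjusted p = 0.0668). It missed the threshold with all arrays and passed it without shCTL (0.31, adjusted p = 0.0263).

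Of the 10 measured enzymes from squalene to cholesterol, 7 were higher in replicate 2, against 18.8% of all genes. Lower was 1, against 17.8%, and the median difference was 0.57. SQLE, squalene epoxidase, catalyses a rate-controlling step. It read 13.53 in #2, 13.40 in #3 and 13.31 in shCTL in replicate 2, against 11.69 in #2, 11.91 in #3 and 12.38 in shCTL in replicate 1. The difference was 2.67-fold (1.42 ± 0.15, adjusted p = 0.000171), which ranked 20 from the top among all 17225. Its second kept probe differed by 1.57. LSS, which closes the sterol rings, read 10.69 in #2, 10.77 in #3 and 10.61 in shCTL in replicate 2, against 10.03 in #2, 10.11 in #3 and 10.03 in shCTL in replicate 1 (0.64 ± 0.08, adjusted p = 0.000516). The 3 lines were nearly alike in this gene, at 0.66 in #2, 0.67 in #3 and 0.58 in shCTL. Its other kept probes, close to background, differed by 0.04 and 0.20.

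The enzymes that strip methyl groups from lanosterol are CYP51A1, MSMO1, NSDHL and HSD17B7. CYP51A1 read 8.66 in #2, 8.61 in #3 and 8.51 in shCTL in replicate 2, against 8.18 in #2, 8.20 in #3 and 7.86 in shCTL in replicate 1 (0.51 ± 0.09, adjusted p = 0.00202). MSMO1 read 10.48 in #2, 10.71 in #3 and 10.52 in shCTL in replicate 2, against 9.47 in #2, 9.66 in #3 and 9.80 in shCTL in replicate 1 (0.93 ± 0.10, adjusted p = 0.00017). A second kept probe of MSMO1 gave 0.92 and another 0.09, so its probes disagreed. NSDHL read 11.44 in #2, 11.23 in #3 and 11.03 in shCTL in replicate 2, against 10.38 in #2, 10.06 in #3 and 9.94 in shCTL in replicate 1. Its difference of 2.15-fold (1.10 ± 0.08, adjusted p = 4.28e-05) had the smallest p of the 27 genes and was alike in the lines, with 1.06 in #2, 1.17 in #3 and 1.09 in shCTL. HSD17B7 read 10.88 in #2, 11.53 in #3 and 10.92 in shCTL in replicate 2, against 11.15 in #2, 10.99 in #3 and 10.92 in shCTL in replicate 1 (0.09 ± 0.14, adjusted p = 0.66). Here the lines pointed in different directions.

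The remaining enzymes reduce, shift or insert double bonds. DHCR7, the terminal reductase of the Kandutsch-Russell branch, read 11.25 in #2, 11.40 in #3 and 11.01 in shCTL in replicate 2, against 9.90 in #2, 10.05 in #3 and 10.02 in shCTL in replicate 1 (2.35-fold, 1.23 ± 0.10, adjusted p = 5.71e-05). Its second probe gave 1.26. EBP, the sterol isomerase, read 11.32 in #2, 11.24 in #3 and 11.02 in shCTL in replicate 2, against 10.77 in #2, 10.94 in #3 and 10.65 in shCTL in replicate 1 (0.41 ± 0.09, adjusted p = 0.00655). The replicates did not overlap for either gene, and EBP narrowly missed the threshold without #2 (0.34, adjusted p = 0.0536).

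SC5D and TM7SF2 went the other way or were not called. SC5D, the sterol desaturase, read 12.24 in #2, 12.27 in #3 and 12.11 in shCTL in replicate 2, against 12.37 in #2, 12.88 in #3 and 12.64 in shCTL in replicate 1 (-0.42 ± 0.11, adjusted p = 0.0132). It was lower in replicate 2 in every line, but the call was lost without #3 (-0.33, adjusted p = 0.10) and with background correction by neqc (-0.43, adjusted p = 0.0576). TM7SF2, a sterol reductase whose step can also be carried out by LBR, read 8.87 in #2, 8.99 in #3 and 9.56 in shCTL in replicate 2, against 9.25 in #2, 9.41 in #3 and 9.47 in shCTL in replicate 1 (-0.24 ± 0.11, adjusted p = 0.128). The knockdown lines were lower in replicate 2 and shCTL was not, and without shCTL the difference passed the threshold (-0.40, adjusted p = 0.0055). GGPS1 makes geranylgeranyl diphosphate and so draws on the pathway before squalene. It read 12.06 in #2, 12.20 in #3 and 12.19 in shCTL in replicate 2, against 12.46 in #2, 12.51 in #3 and 12.54 in shCTL in replicate 1, a lower level in replicate 2 in every line (-0.36 ± 0.08, adjusted p = 0.009). That call was lost without #2 (-0.33, adjusted p = 0.0554) and with scaling to the median (-0.28, adjusted p = 0.0501).

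**Figure D2:**
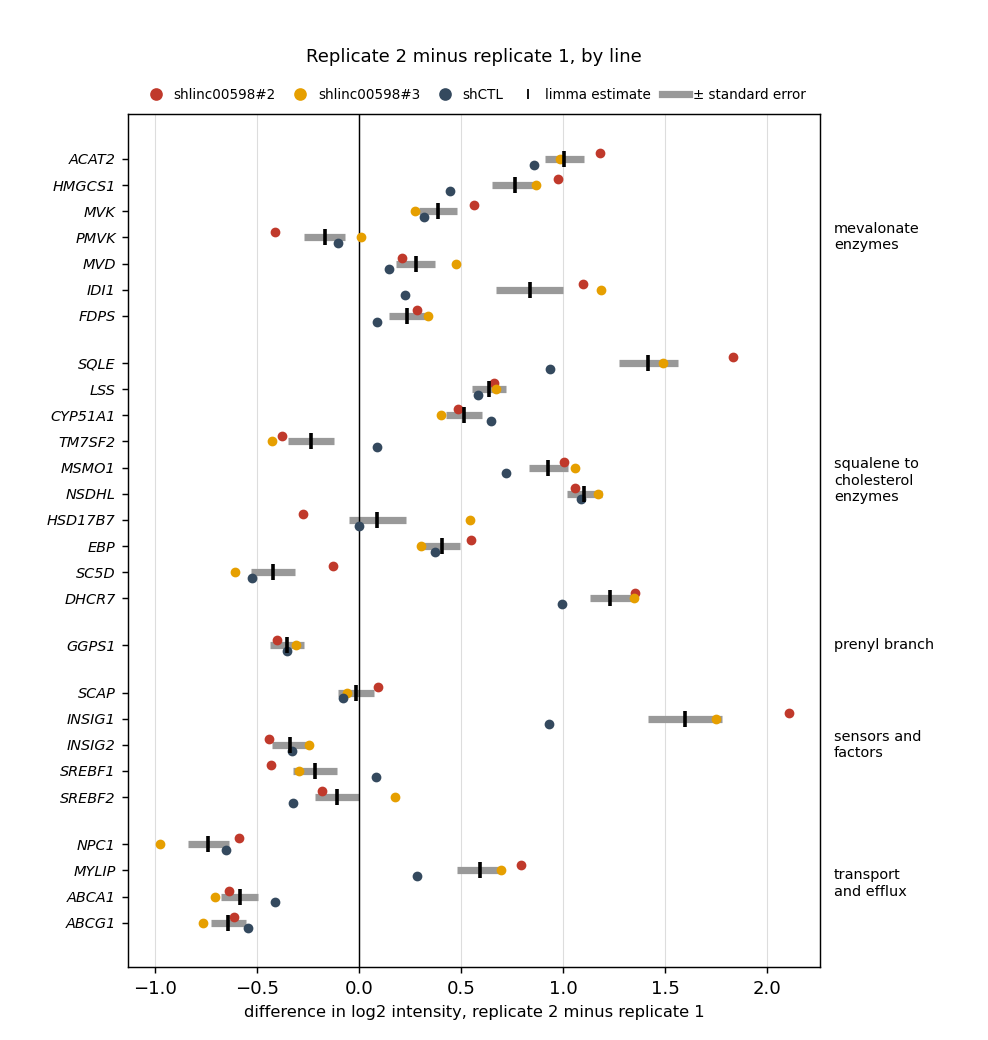
Difference in log2 intensity between replicate 2 and replicate 1 (horizontal axis) for each of the 27 genes. Coloured circles give the 3 lines, the black tick the limma estimate and the grey bar its standard error. INSIG1, SQLE, DHCR7, NSDHL and ACAT2 lie farthest to the right, and NPC1, ABCG1 and ABCA1 farthest to the left.

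The sensors and transcription factors did not move as a group: INSIG1 was higher in replicate 2, INSIG2 was lower, and SCAP, SREBF1 and SREBF2 were not called. INSIG1, itself a target of the SREBPs, read 12.30 in #2, 11.19 in #3 and 11.90 in shCTL in replicate 2, against 10.20 in #2, 9.44 in #3 and 10.97 in shCTL in replicate 1. The means were 11.80 ± 0.56 in replicate 2 and 10.20 ± 0.76 in replicate 1 (SD, n = 3 lines each), a 3.02-fold difference (1.60 ± 0.18 SE, limma adjusted p = 0.000274) that ranked 9 from the top among all 17225. It was 2.11 in #2, 1.75 in #3 and 0.93 in shCTL. INSIG2, whose protein does the same work under other control, read 9.50 in #2, 9.39 in #3 and 9.66 in shCTL in replicate 2, against 9.94 in #2, 9.64 in #3 and 9.99 in shCTL in replicate 1 (-0.34 ± 0.09, adjusted p = 0.0135). The single overlap of the replicates came from the #3 array of replicate 1, and the call was lost without #2 (-0.29, adjusted p = 0.093).

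Neither the SREBP genes nor their escort passed the threshold with all 6 arrays. SCAP read 11.98 in #2, 12.03 in #3 and 11.96 in shCTL in replicate 2, against 11.88 in #2, 12.09 in #3 and 12.04 in shCTL in replicate 1 (-0.02 ± 0.09, adjusted p = 0.907). SREBF1, the gene of SREBP-1, read 9.27 in #2, 9.25 in #3 and 9.60 in shCTL in replicate 2, against 9.71 in #2, 9.55 in #3 and 9.52 in shCTL in replicate 1 (-0.22 ± 0.11, adjusted p = 0.154). Without shCTL the difference was -0.36 (adjusted p = 0.0113), and a second probe gave -0.23 with all arrays. SREBF2 was near the background, detected on 5 of the 6 arrays, which compresses its differences. It read 7.07 in #2, 7.24 in #3 and 6.95 in shCTL in replicate 2, against 7.25 in #2, 7.06 in #3 and 7.27 in shCTL in replicate 1 (-0.11 ± 0.11, adjusted p = 0.461). The arrays report RNA, and cleavage of the SREBP proteins was not measured.

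Of the 4 measured genes of transport and efflux, 3 were lower in replicate 2, against 17.8% of all genes, and 1 was higher, against 18.8%. These are counts over very few genes. NPC1, which moves cholesterol out of lysosomes, read 10.62 in #2, 10.41 in #3 and 10.67 in shCTL in replicate 2, against 11.20 in #2, 11.39 in #3 and 11.32 in shCTL in replicate 1. Its difference (-0.74 ± 0.10, 1.67-fold lower, adjusted p = 0.000585) left no overlap between the replicates (-0.77 with neqc). ABCA1, which loads cholesterol onto apolipoprotein acceptors, read 7.24 in #2, 7.20 in #3 and 7.72 in shCTL in replicate 2, against 7.88 in #2, 7.91 in #3 and 8.14 in shCTL in replicate 1 (-0.59 ± 0.09, adjusted p = 0.00123). Each line was lower in replicate 2 than in replicate 1. Its level was near the background, and with neqc the difference was -1.02.

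ABCG1, a partner exporter, read 7.004 in #2, 6.76 in #3 and 7.29 in shCTL in replicate 2, against 7.62 in #2, 7.53 in #3 and 7.84 in shCTL in replicate 1 (-0.64 ± 0.09, adjusted p = 0.000629). In replicate 2 its probe was detected in shCTL and not in #2 or #3, so the lower levels lie at the background. The other kept probe of ABCG1, named for a different transcript, differed by -0.03 only. With neqc the difference of ABCG1 was -1.27, and with the mean of its probes it was -0.33. MYLIP, which marks lipoprotein receptors for degradation, read 10.42 in #2, 10.38 in #3 and 10.35 in shCTL in replicate 2, against 9.63 in #2, 9.69 in #3 and 10.07 in shCTL in replicate 1 (0.59 ± 0.11, adjusted p = 0.00287). MYLIP is known as an LXR target like ABCA1 and ABCG1, but its difference had the opposite sign. In RNA from whole cultures, a lower level in every cell and fewer cells with the transcript cannot be told apart.

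**Figure D3:**
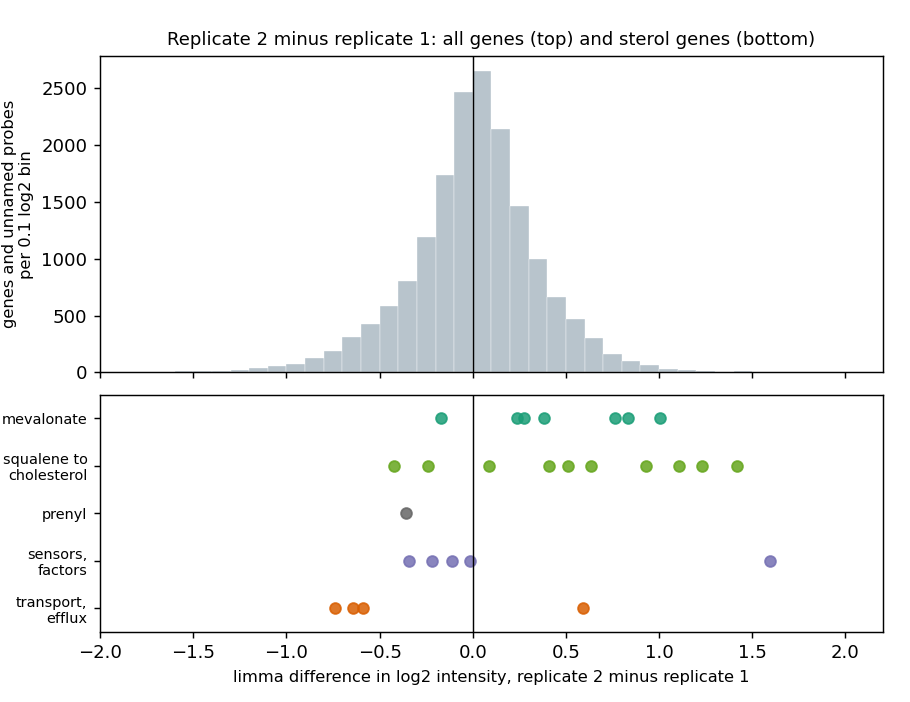
Distribution of the limma difference between replicate 2 and replicate 1 (horizontal axis, log2 intensity) over all 17225 genes and unnamed probes (top, genes per bin, 19 outside the drawn range) and for the 27 sterol genes by role (bottom, 1 circle a gene). The enzymes spread to the right of the bulk up to 1.42, INSIG1 stands at 1.60, and 3 of 4 transport and efflux genes lie between -0.74 and -0.59.

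Of the 17 measured enzymes that run from acetyl-CoA to cholesterol, 12 were higher in replicate 2, 1 was lower and 4 were not called. Of all genes and unnamed probes, 18.8% were called higher and 17.8% lower. The median difference of the 17 enzymes was 0.51. By line the median was 0.56 in #2, 0.54 in #3 and 0.37 in shCTL, against 0.01 in #2, 0.02 in #3 and 0.01 in shCTL over all genes. In 9 of the 17 enzymes the difference was larger in both knockdown lines than in shCTL. Among all 27 genes the difference was more positive in both knockdown lines than in shCTL for 13, against 35.2% of all genes. That count includes SREBF2 and SCAP, whose difference in shCTL was negative. Each line had a single array per replicate, so the difference between lines in this contrast could not be tested.

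The promoter letters were then set beside the replicate contrast. Of the 12 genes with a promoter in the table that were higher in replicate 2, 11 held CCAAT (91.7%), CYP51A1 being the exception. Of the 12 measured genes that were not called higher, 6 held it (50%), namely FDPS, TM7SF2, HSD17B7, SC5D, GGPS1 and SREBF2. The share over all measured genes was 42.1%. Those not called higher and without CCAAT were PMVK, SCAP, INSIG2, SREBF1, NPC1 and ABCA1, of which only PMVK is an enzyme. Most enzymes thus held CCAAT whether called higher or not, so these shares do not separate the call from the role of a gene. GGGCGG was found in 11 of the 12 called higher and in 12 of the 12 not called higher. Genes called higher had 16 promoters in all and 12 of them held CCAAT (75%), against 43.8% of the 16 promoters of the genes not called higher. These shares are a description of a small number of genes.

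The study's own question was what the knockdown of linc00598 changes. With limma on the 6 arrays (3 lines, no other term), 0 of the 27 genes differed in the mean of both knockdown lines against shCTL, in #2 against shCTL, in #3 against shCTL or in #2 against #3, and 0% of all genes did. At an unadjusted p under 0.05 the mean of both lines gave 0 sterol genes, against 1.91% of all genes. The methods' t-test at the same unadjusted threshold also gave 0 sterol genes, against 4.16% of all genes. The replicate difference described above enters the spread of this fit. With the replicate number as a block in limma, 0 sterol genes were called after adjustment in the mean of both lines, against 0.00581% of all genes. Before adjustment, 7 of the 27 passed 0.05 in the mean of both lines in that fit, 3 of them higher, against 6.12% of all genes, and 4 lower, against 7.58%. They were NSDHL, CYP51A1 and EBP among the higher and INSIG1, TM7SF2, ABCA1 and ABCG1 among the lower, with unadjusted p-values of 0.00403 (ABCA1) to 0.0386 (CYP51A1) and adjusted p-values of 0.169 to 0.335 in the same genes. The labels do not say what arrays with the same number share, so this fit is an alternative. The probe of ABCG1 was kept only through shCTL, where it read highest, so it does not support the count of lower genes. No sterol gene reached 1.4-fold, the fold the study's methods required, in the same direction in both lines, against 0.343% of all genes.

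INSIG1 had the greatest difference of the 27 genes in the mean of both lines (-0.65 ± 0.75 SE, 1.57-fold lower, unadjusted p = 0.422, adjusted p = 1). It was the only gene past 1.4-fold lower in this mean, against 0.627% of all genes, and in #3 against shCTL (-1.11 ± 0.86), against 0.946%. The lines were unlike each other: #2 minus shCTL was -0.18 ± 0.86, and #2 minus #3 was 0.93 ± 0.86. The SEs given here and below for the knockdown contrasts include the difference between replicates. With the replicate number as a block in limma, the SE of #3 minus shCTL was 0.22 (unadjusted p = 0.000659, adjusted p = 0.132). That of #2 minus #3 was also 0.22 (unadjusted p = 0.00217, adjusted p = 0.265). Within replicate 2, #2 differed from shCTL by 0.41 and #3 by -0.70. Within replicate 1 both knockdown arrays were below shCTL, by -0.77 in #2 and -1.52 in #3. INSIG1 in #3 was thus below shCTL in both replicates, and #2 changed sides. With an array left out the mean of both lines ran from -1.17 to -0.12. It no longer reached 1.4-fold without #2 of replicate 1 (-0.12), #3 of replicate 1 (-0.21) or shCTL of replicate 2 (-0.18).

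Lower levels in the knockdown lines were also read for the cholesterol exporters and TM7SF2, with none past the threshold. ABCA1 was -0.37 ± 0.29 in the mean of both lines (unadjusted p = 0.244), with -0.48 in #2 and -0.52 in #3 in replicate 2 and -0.26 in #2 and -0.22 in #3 in replicate 1. Its mean was -0.65 with neqc, and -0.58 to -0.16 with an array left out. ABCG1 was -0.34 ± 0.31 (unadjusted p = 0.312), but its other kept probe gave 0.15. The probe read for ABCG1 passed the detection filter only through shCTL, the line where it read highest. Its lower level in the knockdown lines is therefore not independent of the filter. The mean of ABCG1 was -0.66 with neqc, -0.09 with the mean of its probes and -0.61 to -0.07 with an array left out. TM7SF2 was -0.39 ± 0.18 (unadjusted p = 0.0784), with -0.69 in #2 and -0.58 in #3 in replicate 2 and -0.22 in #2 and -0.06 in #3 in replicate 1. It was the only sterol gene whose 4 knockdown arrays (8.87 to 9.41) all lay below both shCTL arrays (9.47 and 9.56), against 5.56% of all genes. INSIG2 was -0.20 ± 0.19 (unadjusted p = 0.316).

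Higher levels in the knockdown lines were read for 4 enzymes, again with none past the threshold. NSDHL was 0.29 ± 0.50 in the mean of both lines (unadjusted p = 0.585), with 0.41 in #2 and 0.20 in #3 in replicate 2 and 0.44 in #2 and 0.12 in #3 in replicate 1. CYP51A1 was 0.23 ± 0.25 (unadjusted p = 0.406), with 0.15 in #2 and 0.10 in #3 in replicate 2 and 0.32 in #2 and 0.34 in #3 in replicate 1. EBP was 0.23 ± 0.21 (unadjusted p = 0.326) and MVK was 0.09 ± 0.21 (unadjusted p = 0.694). These 4 enzymes were above the shCTL array of their replicate in all 4 comparisons, against 15.5% of all genes, and ABCA1, ABCG1, TM7SF2 and INSIG2 were below it in all 4, against 16.1%. Both counts are close to their background, and the comparisons of a replicate share 1 shCTL array. The lower count includes ABCG1, whose probe was kept only through shCTL. Among the 27 genes the mean difference ran from -0.65 to 0.29, with a median of 0.01, against a median of -0.0005 over all genes.

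**Figure D4:**
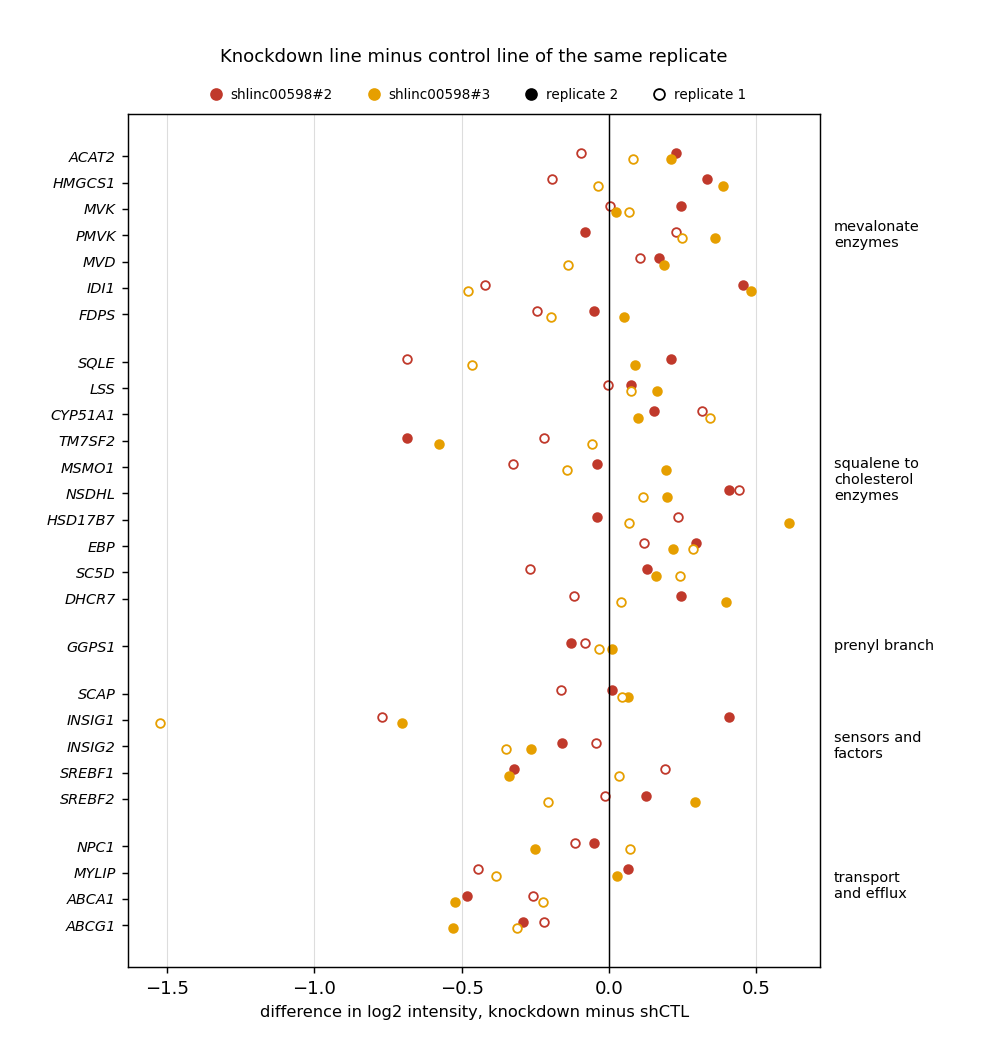
Difference in log2 intensity between a knockdown line and the shCTL array of the same replicate (horizontal axis) for each of the 27 genes. Colours give the knockdown line, filled circles replicate 2 and open circles replicate 1. ABCA1, ABCG1 and TM7SF2 have all 4 circles left of 0, whereas the circles of IDI1 lie on opposite sides of 0 in the replicates.

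For some genes the knockdown lines stood on opposite sides of shCTL in the replicates. IDI1 was 0.45 above shCTL in #2 and 0.48 above it in #3 in replicate 2, and -0.42 in #2 and -0.48 in #3 against shCTL in replicate 1. SQLE was 0.21 in #2 and 0.09 in #3 in replicate 2, and -0.68 in #2 and -0.47 in #3 in replicate 1. HMGCS1 was 0.33 in #2 and 0.38 in #3 in replicate 2, and -0.19 in #2 and -0.04 in #3 in replicate 1. In these enzymes the knockdown lines had the wider range between replicates, and the mean over both replicates hides it. MYLIP and SREBF2 had the same order of signs, which makes 5 genes, against 9.61% of all genes. SREBF1 had the reverse order, with -0.32 in #2 and -0.34 in #3 in replicate 2 and 0.19 in #2 and 0.03 in #3 in replicate 1, against 10.3% of all genes.

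Other genes of sterol and lipid metabolism were read from 6 lists of related genes, of which 61 of 74 could be measured. In replicate 2 against replicate 1, 14 of the 61 were higher and 8 lower, with a median difference of 0.08, which is near the shares of all genes given above. Fatty acid synthesis, which SREBP-1 is known to drive, had 4 of 11 genes higher and 2 lower, against 18.8% higher and 17.8% lower of all genes. ACLY, the enzyme that supplies cytosolic acetyl-CoA, averaged 13.73 in replicate 2 and 12.94 in replicate 1 (0.79 ± 0.10, adjusted p = 0.000356), FASN differed by 0.68 and SCD by 0.67, and LPIN1 was lower (-0.78 ± 0.08). Of 15 measured genes of sterol uptake and traffic 3 were higher and 2 lower, against the same 18.8% and 17.8%. SCARB1, a lipoprotein receptor, was higher (0.77 ± 0.10) and SCARB2, a lysosomal protein of the same family, lower (-0.77 ± 0.08).

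Of 10 genes of SREBP processing and sterol-dependent degradation 1 was higher, against 18.8% of all genes, and 3 were lower, against 17.8%. The protease gene MBTPS2 was lower in replicate 2 (-0.83 ± 0.11), with means of 10.19 in replicate 2 and 11.02 in replicate 1, and TMEM97, whose product binds NPC1, was higher (0.78 ± 0.08). Of 13 genes of isoprenoid use 3 were higher (FNTB, PDSS1 and RABGGTA, by 0.38 to 0.46), against 18.8% of all genes, and none was lower, against 17.8%. LXR receptors, partners and targets had 2 of 7 higher and 1 lower, again against 18.8% and 17.8% of all genes. Of 5 measured genes of the sterol nucleus POR, the reductase that supplies electrons to CYP51A1 and SQLE, was higher (0.58 ± 0.09) and the other 4 were not called.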

How the data were processed

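The authors hybridized labelled cRNA of total RNA to 2 arrays per line and exported the data with GenomeStudio 2011.1. The deposited table before normalization holds average probe intensities on the linear scale, each with its detection p-value, and the authors' processed table holds log2 values after quantile normalization. Of the processed columns, 4 disagreed with the table before normalization on which array they hold. Which order is right was not settled, and the processed table served as an alternative only.

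Intensities were quantile-normalized and put on the log2 scale with limma 3.58.1 (R 4.3.3), with no background correction. A probe was kept when both arrays of any line had a detection p under 0.05 (21282 of 47321 probes). Symbols of the platform annotation were updated to RefSeq (GRCh38.p14), of all probes 30113 had 1 symbol, 8 several and 17200 none, and a gene was read by its brightest kept probe, which left 12192 named genes among 17225 features. 2 limma models were fitted to all features, line alone (3 residual degrees of freedom) and line plus replicate (2), with Benjamini-Hochberg adjustment. Both were tested on simulated data. The simulated arrays for the line model held no shift between replicates, so they do not check that model under the shift seen here. The number of arrays limits the precision. Every measured gene of the set is named, and of each other list up to 4 genes with the smallest p between replicates or in the knockdown mean. The genes and lists were chosen with earlier results of these data known. Alternatives in reading the arrays were neqc (offset 16), median scaling, the processed values, a mean over probes and each array left out. Other detection filters were none, and p under 0.01 on all 6 arrays. Alternative tests were the replicate number as a block and a Student's t-test of the pooled knockdown arrays against shCTL. Other fold criteria were 1.2-fold in both lines and 1.4-fold in the mean. Using the 4 knockdown arrays alone was added after the data were seen.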

Additional observations from a re-analysis of the deposited data

Results flagged for a closer look

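Knockdown minus shCTL had opposite signs in the replicates, in both knockdown lines, for 6 of the 27 genes; with a single array per line and replicate the difference was not tested in any of them. The value given is the mean of both knockdown lines minus shCTL in replicate 2, minus the same in replicate 1, on the log2 scale. It was 0.92 for IDI1 (0.47 in replicate 2 and -0.45 in replicate 1), 0.73 for SQLE (0.15 in replicate 2 and -0.58 in replicate 1), 0.47 for HMGCS1 (0.36 in replicate 2 and -0.12 in replicate 1) and 0.46 for MYLIP (0.05 in replicate 2 and -0.41 in replicate 1). SREBF2 had 0.32 (0.21 in replicate 2 and -0.11 in replicate 1) at levels near the background. SREBF1 had the reverse signs, at -0.44 (-0.33 in replicate 2 and 0.11 in replicate 1). Of all genes, 9.61% had the signs of the first 5 and 10.3% those of SREBF1.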

How the results depend on the processing

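The difference between replicates was called in 20 sterol genes, against 36.6% of all genes. Under neqc, median scaling, other detection filters, the mean of probes and without the line term 18 to 20 were called. The share of all genes in those settings ran from 16.5% with no detection filter to 44.2% with the strict filter, so like counts are not a like excess. In the 4 knockdown arrays alone 23 were called, against 38.3% of all genes. With an array left out 15 to 23 were called (15 without #2), against 23.4% to 38.3%. In the processed values, read by their labels, 0 were called. The knockdown contrasts had 0 called genes under every alternative. With the replicate number as a block, 0 sterol genes were called in any of the 4 contrasts, while in the mean of both lines 7 of 27 (3 higher and 4 lower) had an unadjusted p under 0.05, against 13.7% of all genes (6.12% higher, 7.58% lower). Same-numbered arrays deviated together (correlations of 0.827, 0.742 and 0.76 between lines), but there are only 2 replicate numbers and the labels do not say what they share. Genes at 1.4-fold in both lines numbered 0; 2 with neqc, 1 in the processed values, 1 by the mean of both lines, 2 at 1.2-fold in both lines, and 0 to 6 with an array left out. The main count of 0 stands against 0.343% of all genes, and the 1 by the mean, a lower gene, against 0.627% lower. For the other fold counts, among them the 6 without shCTL of replicate 2, the share of all genes was not computed. Those counts can therefore not be read as more or fewer than the background. Genes with a single sign against shCTL in all 4 comparisons numbered 8 (29.6%), close to the 31.7% of all genes. They numbered 0 in the processed values and 10 to 21 with an array left out, when fewer comparisons remain. The share of all genes was not computed in those settings.

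Signs that turned in the knockdown mean were, in the processed values, HMGCS1 (-0.13), MVK (-0.10), MVD (-0.0461), IDI1 (-0.33), TM7SF2 (0.13), NSDHL (-0.0156), SC5D (-0.0306), DHCR7 (-0.0427), ACAT2 (-0.0651), SREBF1 (0.13), SREBF2 (-0.0451) and GGPS1 (0.039), with neqc IDI1 (-0.016), with the mean of probes MSMO1 (0.0632), and with median scaling SCAP (0.0498) and GGPS1 (0.0032). In the replicate difference they were, in the processed values, PMVK (0.0641), SC5D (0.0902), INSIG1 (-0.0411) and SCAP (0.067), and SCAP also with median scaling (0.0408) and in the 4 knockdown arrays (0.0161). With an array left out, the knockdown mean changed sign in 17 genes, within ranges of -0.12 to 0.36 (HMGCS1), -0.0741 to 0.25 (MVK), -0.0384 to 0.20 (MVD), -0.29 to 0.30 (IDI1), -0.68 to 0.25 (SQLE), -0.21 to 0.37 (LSS), -0.10 to 0.55 (CYP51A1), -0.44 to 0.28 (MSMO1), -0.25 to 0.83 (NSDHL), -0.20 to 0.33 (SC5D), -0.36 to 0.64 (DHCR7), -0.32 to 0.53 (ACAT2), -0.11 to 0.21 (SREBF2), -0.051 to 0.0295 (SCAP), -0.24 to 0.12 (GGPS1), -0.38 to 0.0143 (MYLIP) and -0.41 to 0.24 (NPC1). The replicate difference of HSD17B7 ranged from -0.14 to 0.27 and that of SCAP from -0.0708 to 0.0161. Genes near the background (SREBF2, ABCA1, ABCG1 and MVK) have compressed differences. The cause of these changes was not tested, except that leaving out an array leaves the replicates unequal between lines.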

Other observations

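Genes outside the 29 that also take part in sterol uptake and export read lower in the knockdown lines in some cases, with no call in limma (adjusted p = 1 for each in the mean of both lines). VLDLR, a lipoprotein receptor, was -0.58 ± 0.22 in the mean of both lines, with -0.85 in #2 and -0.86 in #3 in replicate 2 and -0.18 in #2 and -0.43 in #3 in replicate 1. OSBPL5, a lipid transfer protein of membrane contact sites, was -0.46 ± 0.21, and the exporter ABCG4 was -0.37 ± 0.13. Of the 15 measured genes of sterol uptake and traffic, 7 were below the shCTL array of their replicate in all 4 comparisons and 0 above it, against 16.1% and 15.5% of all genes. Of the 13 measured genes of isoprenoid use, 5 were above it in all 4 and 0 below. Over all 61 measured genes of the 6 lists, 10 were above and 14 below. The comparisons share their shCTL arrays, so these counts are a description, and the lists were chosen with earlier results known.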
